A study of Mus musculus with 39 samples.

Results

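The heat shock chaperones Hspa1a, Hspa1b, Hspa8, Hsph1, Dnajb1, Hspb1, Hsp90aa1, Hspd1, Hspe1 and Bag3 were followed in mouse subcutaneous adipose tissue over a feeding course. Members were taken by gene name, with every probe of each, and 9 of the 10 were measured, by 15 probes among 29411 gene names on the array; no probe carried the name Hspa1b. The genes had been chosen by their levels on these arrays and by their relation to Fos, so those levels are given as a description. The animals were C57BL/6J mice, weaned at 3 to 4 weeks and divided into groups of 30 animals each. LFC mice ate a normal diet with 10% of calories from fat (10 arrays), and HFC mice ate a high-fat, high-sucrose diet with 60% of calories from fat (11 arrays). HF5, HF20 and HF75 mice ate the HFC diet with 5, 20 or 75 µg of KAL-1, an aqueous botanical formulation (6 arrays each). Each diet had 1 array per named time point, while the series' design text speaks of 3 biological replicates, so what a single array stands for is not given. Sampling ran every 3 weeks from Week 3 to Week 18 in all diets, and earlier in LFC and HFC alone, on Days 6, 10 and 14 and at Week 0. A Day 1 array was present in HFC alone. The study's methods count weeks from Day 14, so Day 14 and Week 0 are the same time and LFC and HFC each have 2 arrays there, which were kept as separate time points unless stated. The labels do not say whether the RNA of several animals was pooled for an array.

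Heat shock proteins bind unfolded proteins and keep them from aggregating. Their genes are switched on by the heat shock factor HSF1, which is held inactive by chaperones and is set free when unfolded protein accumulates. Active HSF1 binds heat shock elements, runs of short nGAAn units in alternating orientation, in the promoters of its targets. Hspa1a and Hspa1b encode the stress-inducible HSP70, usually scarce in unstressed tissue, while Hspa8 encodes its constitutive relative HSC70. Dnajb1 (an HSP40) stimulates the ATPase of HSP70, and Hsph1 (HSP110) and Bag3 act as nucleotide exchange factors. Hsp90aa1 encodes an inducible HSP90 and Hspb1 a small heat shock protein. Hspd1 and Hspe1 encode HSP60 and HSP10, the chaperonin of mitochondria. Fos is an immediate early gene, transcribed within minutes of many stimuli, tissue handling among them.

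Hspa1a lies at chr17:34969359-34972156 and Hspa1b at chr17:34956429-34959238 (GRCm38.p6). RefSeq promoters are listed for 8 of the 10 members, and those of this gene pair share 247 of 250 bases (98.8%). They are printed because they show how alike the pair is; both end at the base before the start site, lie on the minus strand, and carry in capitals the match GAAGATTC at position -104.
Hspa1a, chr17:34972157-34972406: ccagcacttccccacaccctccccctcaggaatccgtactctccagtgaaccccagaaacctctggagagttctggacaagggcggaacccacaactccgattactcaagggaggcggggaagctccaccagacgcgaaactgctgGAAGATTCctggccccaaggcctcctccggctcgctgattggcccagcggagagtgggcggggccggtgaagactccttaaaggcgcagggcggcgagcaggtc
Hspa1b, chr17:34959239-34959488: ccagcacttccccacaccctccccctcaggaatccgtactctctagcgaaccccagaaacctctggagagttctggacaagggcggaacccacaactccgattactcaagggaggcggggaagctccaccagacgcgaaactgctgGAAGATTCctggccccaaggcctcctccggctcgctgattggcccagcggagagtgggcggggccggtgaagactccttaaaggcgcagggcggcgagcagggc

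The motif searched was GAANNTTC or TTCNNGAA, each of which reads the same on the other strand. It occurred in 12.8% of 32851 promoters of this length and in 7 of the 11 listed for members (63.6%), some genes having more than 1. These belong to Hspa1a, Hspa1b, Hsph1, Hspb1, Hspd1 and Hspe1. The longer forms GAANNTTCNNGAA and TTCNNGAANNTTC, which contain the shorter ones, occurred in 0.466% of promoters and in 2 of the members' 11, which overlap and hold the same stretch: that of Hspe1 and the inner of the 2 listed for Hspd1. The outer promoter of Hspd1, chr1:55088244-55088493, holds no match of either length. Hspd1 (chr1:55077833-55088243) and Hspe1 (chr1:55088148-55091317) are neighbours on chromosome 1 and run in opposite directions. Their listed spans overlap at the start of Hspe1. The stretch that holds the longer match lies before that start and within the span of Hspd1, and is shown, with the overlapping units in capitals, since the levels of both genes are compared later.
Hspe1, chr1:55088053-55088082, plus strand, positions -95 to -66: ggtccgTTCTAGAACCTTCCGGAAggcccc
No match lay in these windows of Dnajb1, Bag3 or Fos.

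Hspa1a was read by 4 probes, and 2 of them are printed because each was saturated on at most 1 array, whereas the brightest probe was saturated on 11. Whether a probe also reads Hspa1b was not tested, and values under the name Hspa1a are uncertain in that respect.
Hspa1a, probe 52_P52803: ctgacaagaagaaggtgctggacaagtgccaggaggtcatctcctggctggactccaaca
Hspa1a, probe 52_P304902: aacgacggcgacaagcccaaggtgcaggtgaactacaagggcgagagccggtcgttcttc
Probes 51_P117952 and 52_P82741, the brightest, overlap by 30 bases and are not independent readings.
Hspa1a, shared by probes 51_P117952 and 52_P82741: AGGGAAACTAAACTGTCTTTCAGTTACTTT

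A level here is the log2 of a probe's signal minus the log2 of the 75th percentile of all probes on its array, so 0 is the level of a fairly bright probe and 1 unit is a doubling. The brightest probe stands for a gene unless another is named. Levels of different genes are not set against each other, because probes differ in brightness. The 75th percentile of signal ranged from 107.9 to 1285.3 scanner units and 49.3 to 87.8% of probes were well above background. The arrays were scanned on 14 days. Files and deposited ratios disagree on Week 12: the deposited HF5 column matched the HF20 array (r = 0.9985) and the HF20 column the HF5 array (r = 0.9988), so those labels are uncertain. The title of the LFC array of Week 12 names no day or week, unlike all other titles. In bulk tissue, fewer cells of a type and less RNA per cell cannot be told apart.

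The inducible HSP70 gene lay in separate ranges. On 33 arrays the Hspa1a level was between 4.87 and 8.31, whereas on 6 arrays it was between -1.36 and 1.48, and no array lay in the gap of 3.40 between them. The 6 arrays were LFC Day 6 (-1.36), HFC Day 10 (-1.26), LFC Week 12 (-0.86), HFC Day 6 (0.06), HFC Day 1 (1.02) and HF75 Week 3 (1.48). The nearest array above the gap was HFC Day 14 at 4.87. Of the 9 arrays up to Week 0, 4 were low, and of the 30 later ones, 2 were low. The repeated time, Day 14 and Week 0, gave 6.99 and 5.81 in LFC and 4.87 and 5.51 in HFC. Both diets at Day 6 were low, but at Day 10 LFC stood at 7.03 against -1.26 in HFC.

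**Figure D1:**
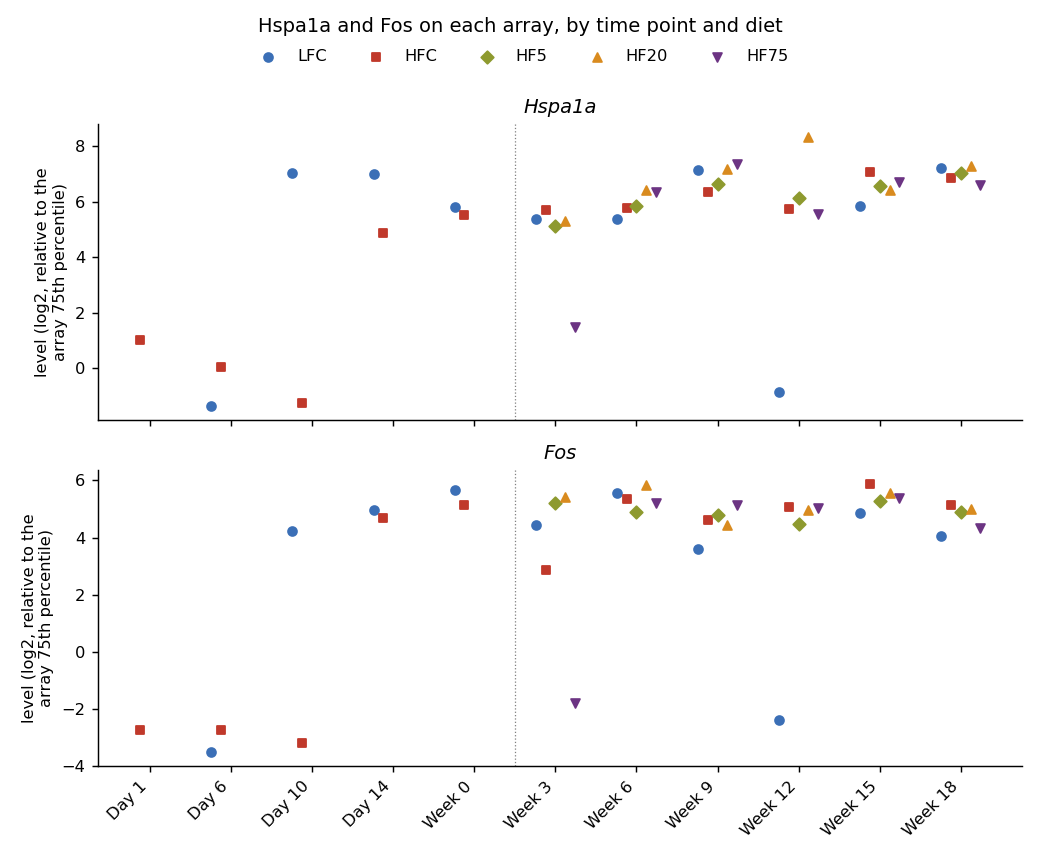
Levels of Hspa1a (top) and Fos (bottom) on each of the 39 arrays (vertical axis: log2 relative to the 75th percentile of the array; horizontal axis: time point; marker: diet; the dotted line divides early from late time points). The same 6 arrays lie below 2 for Hspa1a and below 0 for Fos, and 4 of them were taken before Week 0.

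Every diet with a low array also had high ones. LFC arrays ran from -1.36 over a median of 5.83 to 7.20, and HFC arrays from -1.26 over 5.70 to 7.07. HF5 arrays ran from 5.11 over 6.34 to 7.01, HF20 arrays from 5.32 over 6.80 to 8.31, and HF75 arrays from 1.48 over 6.46 to 7.34. The 5 diets overlapped, and HF5 and HF20 alone had no low array. The highest level was that of the HF20 array of Week 12, whose label is uncertain. Saturation makes the level a lower bound on 11 arrays, among them all 5 of Week 15.

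The other Hspa1a probes put the same 6 arrays lowest. Probe 52_P52803, saturated on 1 array, read -3.33 to -1.06 on them and 1.86 to 7.40 on the rest, and 52_P304902 read -7.94 to -3.56 against -2.09 to 3.48, being well above background on 37 of 39 arrays. Among the 33 arrays the probes ranked arrays less alike. The overlapping pair correlated at r = 0.96, whereas 52_P304902 and the brightest probe correlated at 0.57 and 52_P52803 and the brightest probe at 0.65. At Week 18, for example, the LFC array was at 7.20 by the brightest probe, the second highest of the 5 diets, and at 1.86 by 52_P52803, the lowest of the 5.

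Scan day was examined beside these levels. Of the 6 low arrays, 3 were the sole arrays of their scan day. HFC Day 10 shared its day with an array at 7.03, HF75 Week 3 with 4 arrays at 5.11 to 5.70, and LFC Week 12 with 2 arrays at 6.13 and 8.31. So both ranges occurred on 3 scan days. The share of probes well above background was 49.3 to 82.1% on the 6 arrays and 52.1 to 87.8% on the others, which overlap.

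Fos lay in the same ranges as Hspa1a. It was at -3.53 to -1.79 on the 6 arrays and at 2.88 to 5.89 on the other 33. A mean over 18 immediate early genes behaved alike, at -0.47 to 0.15 against 3.26 to 4.84. Since the arrays form separate clusters, no correlation of Hspa1a with Fos is given over all 39. Across the 33 arrays Hspa1a and Fos correlated at r = -0.10 (Spearman -0.18), and at 0.03 after time point means were subtracted (32 arrays). Over the 6 low arrays alone r was 0.75 (Spearman 0.77, n = 6). Among the 33, leaving out the 2 arrays farthest in Fos gave -0.16, and leaving out HF20 Week 12 gave -0.11.

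**Figure D2:**
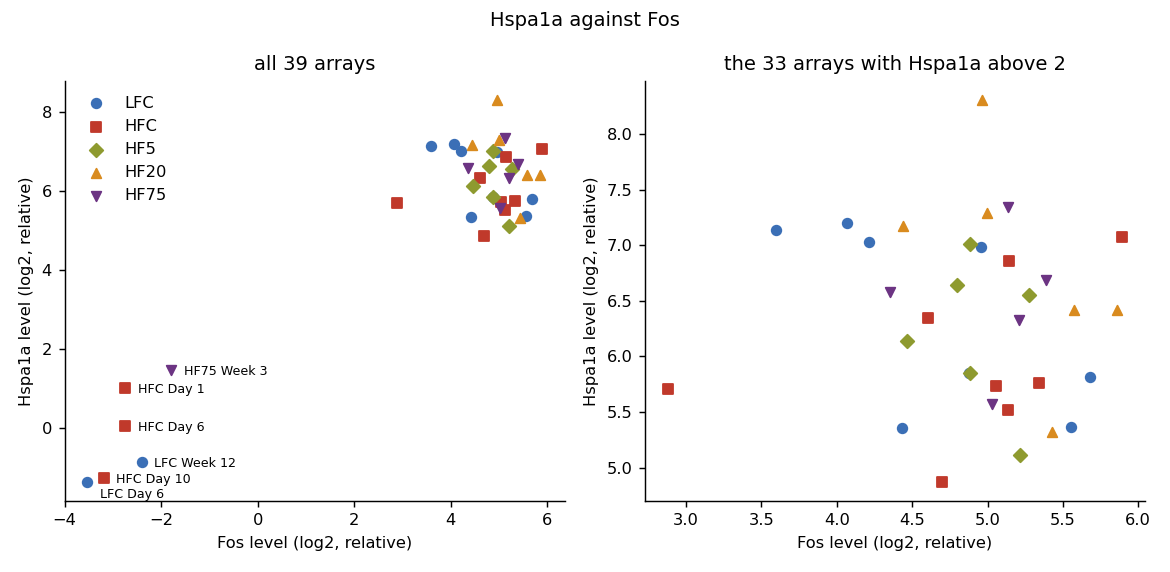
Hspa1a level against Fos level on all 39 arrays (left, with the 6 low arrays named) and on the 33 arrays with Hspa1a above 2 (right, axes enlarged), both as log2 relative to the 75th percentile of the array; markers give the diet. The arrays fall into separate clouds, and within the upper cloud r is -0.10.

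Within diets the relation had no single sign. Over the high arrays of each diet, r was -0.66 in LFC (n = 8), 0.38 in HFC (n = 8), -0.24 in HF5 (n = 6) and -0.57 in HF20 (n = 6); HF75, with 5 such arrays, was left out. The probe mattered too: across the 33 arrays, 52_P52803 correlated with Fos at 0.27, 52_P304902 at 0.37 and 51_P117952 at -0.04. These points share the array's normalization.

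The other members did not all follow. Dnajb1, the HSP40 partner, came nearest to Hspa1a. It was at 2.28 to 3.48 on the 6 arrays and at 4.22 to 6.28 on the others, with no overlap, and its second probe was at -1.71 to 0.24 against 0.89 to 3.80. HF75 Week 3 was lowest at 2.28. The arrays were grouped by Hspa1a, and how many of all genes separate in this way was not counted. Separation can therefore not be called particular to chaperones. Hsp90aa1 overlapped, at 3.76 to 5.56 on the 6 arrays against 4.82 to 7.06, with its 3 lowest levels in HFC Day 10 (3.76), HFC Day 1 (3.77) and HF75 Week 3 (4.11). Hsph1 was at 1.62 to 3.86 on 5 of the arrays, its spot on HFC Day 1 being left out as an outlier, against 2.02 to 6.14.

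The spread of Hspa8, HSC70, depended on the probe. Over the 39 arrays the SD was 0.46 for the brightest probe, which was saturated on 10 arrays, and 0.82 for the other, which was saturated on none. By the brightest probe Hspa8 was at 4.87 to 6.32 on the 6 arrays and at 5.58 to 6.95 on the others, and HF75 Week 3, at 6.32, lay above the median of the others (6.18). Its 2 probes correlated at r = 0.03 across the 33 arrays, so the order of its levels depends on the probe. Both are shown because they disagree.
Hspa8, probe 51_P170371: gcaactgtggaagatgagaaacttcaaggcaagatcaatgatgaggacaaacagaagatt
Hspa8, probe 52_P12877: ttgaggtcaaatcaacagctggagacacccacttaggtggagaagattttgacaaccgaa
Probe 52_P12877 read 3.29 to 5.38 on the 6 arrays and 2.26 to 5.61 on the others.

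Hspb1 and its partner Bag3 split the 6 arrays. Bag3 was at 4.30 in HF75 Week 3 and 3.77 in HFC Day 1, both above the median of the other 33 arrays (3.48), and at 1.74 to 2.03 in the remaining 4. Hspb1 was at 4.14 and 4.17 in that pair and at 1.02 to 2.83 in the 4. The same pair had the highest means of 10 skeletal muscle genes on the 39 arrays (7.42 and 6.21) and of 6 other small heat shock proteins (3.97 and 4.16, against at most 1.04 elsewhere), and their part in the split was not tested. Across the other 33 arrays Bag3 ran from 1.13 (LFC Week 3) to 4.37 (HF75 Week 6) and Hspb1 from 3.14 (LFC Week 3) to 7.53 (HF20 Week 12). LFC Week 3, which is not one of the 6, thus had the lowest Bag3 level of the 39 arrays.

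The mitochondrial chaperonin pair ran the other way. Hspd1 was at 5.27 to 6.14 on the 6 arrays and at 3.20 to 5.84 on the others, and all 6 lay above the others' median of 3.90. A single array of the 33, HF20 Week 12 at 5.84, reached their range. Hspe1 was at 3.18 to 4.05 against 1.06 to 3.92, again with all 6 above the others' median (2.64), though 6 of the 33 reached their range. The second Hspd1 probe was at 1.60 to 2.80 against -1.43 to 2.37.

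**Figure D3:**
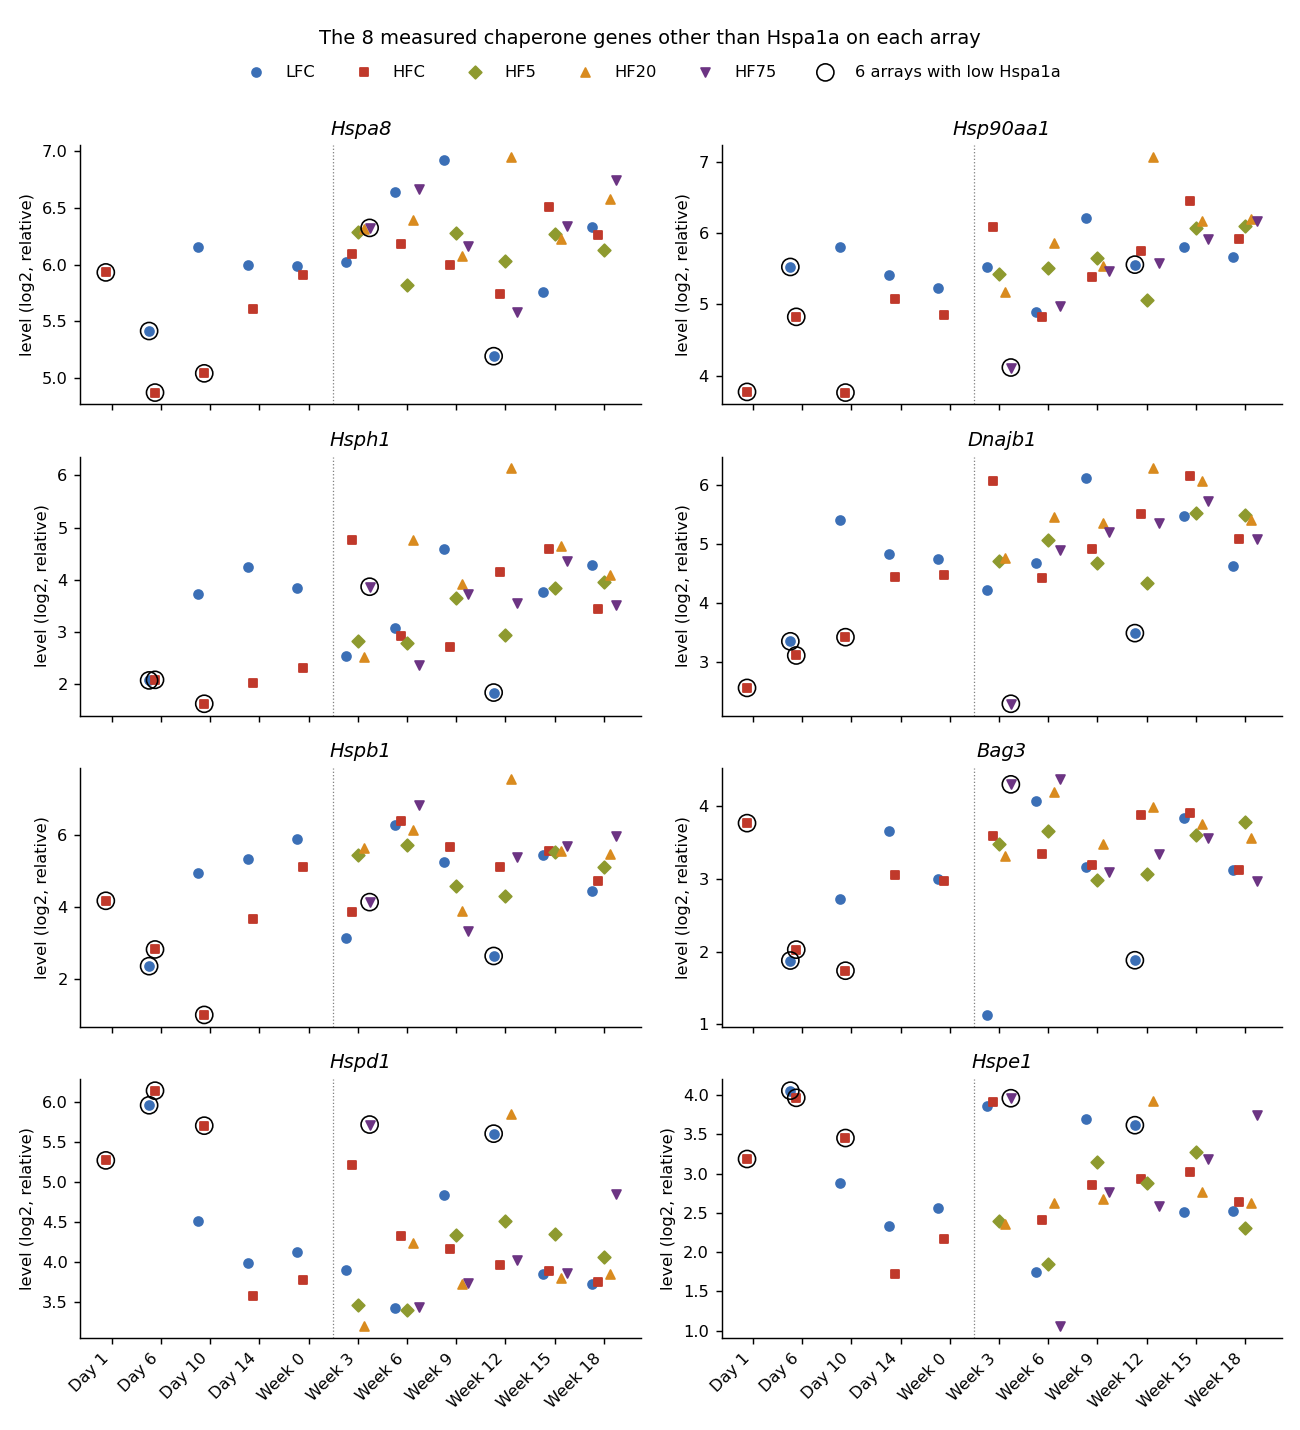
Levels of the 8 measured members other than Hspa1a (log2 relative to the 75th percentile of the array) at each time point (horizontal axis), with markers for diets, rings around the 6 arrays with low Hspa1a, and a dotted line between early and late time points. On the 6 arrays with low Hspa1a, Dnajb1 is at 2.28 to 3.48, below all other arrays, while Hspd1 is at 5.27 to 6.14.

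Other gene lists moved with the same arrays, and their part in these levels was not tested. The mean of 10 skeletal muscle genes was 0.90 to 7.42 on the 6 arrays and -4.36 to 5.78 on the others, and all 6 were above the others' median of -1.45; 4 of the 10 genes were well above background on every array. The mean of 9 adipocyte genes overlapped, at 2.08 to 5.62 against 1.18 to 5.42, and all 9 were well above background throughout. That of 5 endothelial genes was 0.88 to 1.70 against 1.57 to 4.35. The mean of 5 brown adipocyte genes was 0.61 to 3.55 on the 6 arrays, all above the others' median of -1.49, and -4.39 to 3.57 on the others. One of these genes, Cox8b, a subunit of mitochondrial cytochrome oxidase, was at 4.90 to 7.59 against -3.55 to 5.69. Ucp1, the uncoupling protein of brown fat, overlapped widely, at -3.36 to 6.48 against -3.91 to 6.51. The mean of 6 glucocorticoid-responsive genes was 0.33 to 2.33 against 1.30 to 3.64, with all 6 arrays below the others' median of 2.93 and 3 of them below all others. Macrophage, lymphocyte, epithelial and red blood cell lists overlapped. The means of 15 co-chaperones (1.44 to 2.15 against 0.77 to 1.80) and of the 8 subunits of the cytosolic chaperonin (2.46 to 3.34 against 1.5 to 2.65) had all 6 arrays above the others' median and 4 above all others, whereas that of 9 other HSP70 genes (0.28 to 0.46 against 0.04 to 0.81) had none above it. The mean of the 2 other HSP90 genes was 3.72 to 4.44 against 1.81 to 3.62, with no overlap. Of these 2, Trap1 alone separated, while Hsp90ab1 overlapped at 4.5 to 5.7 against 3.7 to 5.8. That of 10 chaperones of the endoplasmic reticulum was 0.73 to 1.90 against 1.49 to 2.38, with none of the 6 above the others' median and 3 below all others. Single chaperones outside the members were picked after their values were seen. Trap1, the mitochondrial HSP90, was at 2.76 to 3.48 on the 6 arrays and at -0.16 to 2.04 on the others. Hspa9, the mitochondrial HSP70, was at 4.55 to 5.69 against 2.24 to 4.30. Dnaja3, a mitochondrial HSP40, overlapped at 0.9 to 3.1 against -0.4 to 2.0. How many of all genes separate likewise was not counted. Hspa5, the HSP70 of the endoplasmic reticulum, overlapped at 4.24 to 5.64 against 5.04 to 7.30. Hsf1 itself was at 0.18 to 2.98 against 0.50 to 2.27.

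Across the 33 arrays the levels of the members varied together to differing degrees, as 36 pairwise correlations describe. They ran from -0.37 (Hspe1 and Bag3) to 0.83 (Dnajb1 and Hsp90aa1), with a median of 0.44, and 33 were above 0. Hsph1 correlated with Hsp90aa1 at 0.82 and with Dnajb1 at 0.81. Hspa1a correlated with Hsph1 at 0.69 and with Hsp90aa1 at 0.66, more than with Hspb1 (0.14) or Bag3 (0.19). Hspd1 and Hspe1, the neighbours printed earlier, correlated at 0.75, and Hspb1 and Bag3 at 0.62. The HF20 array of Week 12 held the highest level of 8 of the 9 members among these 33 arrays, Bag3 being the exception. Without it the median fell to 0.32, Hspa1a and Hspb1 went to -0.06, and Dnajb1 with Hsp90aa1 stayed at 0.81 and Hspd1 with Hspe1 at 0.72.

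**Figure D4:**
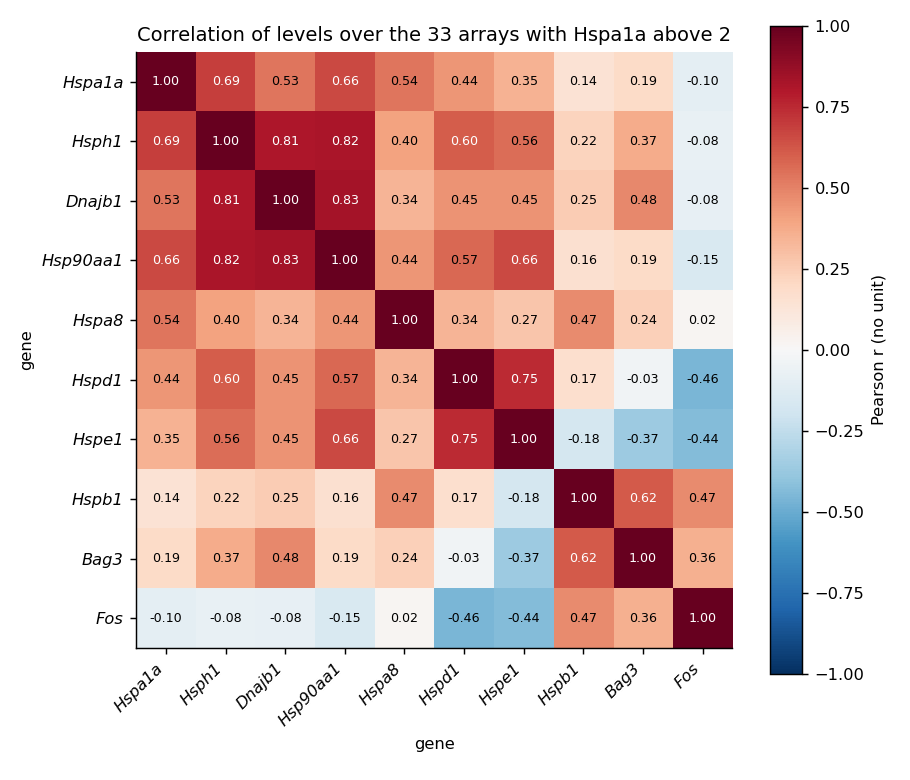
Pearson correlation between members, and of each member with Fos, across the 33 arrays with Hspa1a above 2 (colour scale from -1 to 1, values printed in the cells). Hsph1, Dnajb1 and Hsp90aa1 correlate at 0.81 to 0.83, and Hspd1 with Hspe1 at 0.75.

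With Fos, the members differed in sign over these 33 arrays. Hspb1 correlated at 0.47 and Bag3 at 0.36, and Hspd1 at -0.46 and Hspe1 at -0.44. The other 5 lay between -0.15 and 0.02. After time point means were subtracted the values were 0.24 for Hspb1, 0.09 for Bag3, -0.49 for Hspd1 and -0.37 for Hspe1. Hspb1 and Fos were positive in the LFC (0.56), HFC (0.62), HF5 (0.79) and HF20 (0.40) arrays taken alone. Without HFC Week 3 and LFC Week 9, the arrays with the lowest Fos of the 33, the values were -0.22 for Hspd1, -0.21 for Hspe1, 0.51 for Bag3 and 0.47 for Hspb1.

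As a measure of likeness, r was taken over all 39 arrays, both clusters together. The genes most like Hspa1a among 17210 searched were Socs3 (r = 0.96), Junb (0.95), Atf3 (0.94), Egr1 (0.93) and Ier5 (0.93). These values span the gap between the ranges. Within the 33 arrays the same genes correlated at 0.63, 0.69, 0.26, 0.36 and 0.27. Those most like Hspa8 by its brightest probe were Nr4a1 (0.80, and 0.63 in the 33 arrays), Sparcl1 (0.79 and 0.78), Gm13637 (0.76 and 0.79), Gadd45g (0.76 and 0.73) and Gm9389 (0.74 and 0.73). That probe was saturated on 10 arrays. The other Hspa8 probe, which correlated with it at 0.14 over the 39 arrays, was not ranked.

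The first comparison asked whether the high-fat diet alters these genes. Over the 10 named time points with both diets, Day 14 and Week 0 counted apart, Hspa1a was higher in HFC at 5 and lower at 5. The largest differences, HFC minus LFC, were -8.28 at Day 10 and 6.59 at Week 12, where 1 of the pair was a low array, and the rest ran from -2.12 at Day 14 to 1.42 at Day 6. The mean difference was -0.19 (SE 1.02, adjusted p = 0.98, limma). By the brightest probe, Dnajb1, Hspa8 and Hsp90aa1 were lower in HFC at 4 of 4 named time points up to Week 0, and Hspb1 was higher in HFC at 6 of 6 from Week 3, by 0.10 to 2.46. These were the only members with a single sign throughout either phase, and no such count was made over all genes. Day 14 and Week 0 are the same time, and the Day 6 and Week 12 pairs were each scanned on different days.

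No member was called between HFC and LFC, and limma called 0 of 19876 genes at an adjusted p under 0.05 (0.0%). None of the 9 members had an unadjusted p under 0.05, against 5.86% of all genes, and the methods' t-test called none either. Differences of the other members ran from -0.34 (Hsph1, SE 0.48) to 0.23 (Bag3, SE 0.33). Their median, with Hspa1a, was -0.18, against -0.04 over all genes. For Hspa8 the sign depended on the probe, at -0.22 by the brightest and 0.13 by 52_P12877. Without the 4 low arrays in this fit the Hspa1a difference was -0.23. These p-values measure the spread between single arrays of successive time points.

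Over Week 3 to Week 18 alone, the difference HFC minus LFC was 1.24 for Hspa1a (SE 0.87), 0.64 for Bag3 (SE 0.35), 0.68 for Hspb1 (SE 0.54) and 0.59 for Dnajb1 (SE 0.43), and limma's adjusted p was 0.85 for each. No member and no gene of 21092 was called (0.0%), and no member had an unadjusted p under 0.05, against 5.06% of genes. Probe 52_P52803 of Hspa1a gave 2.16 (SE 0.95, unadjusted p = 0.0326, adjusted p = 0.88). Without the low arrays, here LFC Week 12 and HF75 Week 3, the difference was 0.06 for Hspa1a, 0.42 for Bag3, 0.25 for Hspb1 and 0.31 for Dnajb1. It was 0.27 for Bag3 without Week 3, and without Week 12 it was 0.17 for Hspa1a, 0.32 for Hspb1 and 0.30 for Dnajb1. In the same fit the difference was above 0 for 17 of 17 immediate early genes tested (median 1.08) and for 0 of 10 skeletal muscle genes (median -1.79), 0 of 8 lymphocyte genes (median -1.59) and 0 of 5 brown adipocyte genes (median -1.21, 2 with an unadjusted p under 0.05), and their part was not tested.

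The difference between diets was also compared between late and early time points. HFC minus LFC was greater late than early by 2.15 for Hspb1 (SE 0.79, unadjusted p = 0.0196), by 0.99 for Hsp90aa1 (SE 0.45, unadjusted p = 0.0498), by 1.88 for Hsph1 (SE 0.86) and by 3.56 for Hspa1a (SE 1.88). The second Dnajb1 probe gave 2.11 (SE 0.81, unadjusted p = 0.0242), against 1.31 by the brightest. The limma adjusted p was 1.0 for all, with 0 of 19876 genes called (0.0%). The 2 members with an unadjusted p under 0.05 stood against 1.89% of all genes, or 0.8% higher alone. Without Day 10, where HFC was low and LFC high, no member had one, and without the 4 low arrays Hspb1 was the sole one, at 1.54. In this contrast 17 of 17 immediate early genes tested were above 0 (median 2.24, 7 with an unadjusted p under 0.05) and 0 of 10 skeletal muscle genes (median -2.34, 2 with such a p). Their part in the members' values was not tested.

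Next, KAL-1 was compared with the HFC diet alone. With the doses together no member passed the threshold. Hspa1a differed by -0.01 (SE 0.71) and the 8 other members by -0.27 (Dnajb1, SE 0.35) to 0.16 (Hspa8, SE 0.20), with limma adjusted p of 1.0. Of 21092 genes 0 were called (0.0%), and 0 of the 9 members against 4.5% of genes had an unadjusted p under 0.05. All 10 skeletal muscle genes were above 0 (median 2.55), as were 5 of 5 brown adipocyte genes (median 0.64) and 5 of 5 endothelial genes (median 0.23). Above 0 were 0 of 7 macrophage genes (median -0.57) and 0 of 6 glucocorticoid-responsive genes (median -0.14). The part of these lists was not tested. For Hspa1a the difference from HFC was -0.03 at HF5, 0.57 at HF20 and -0.58 at HF75 (SE 0.87 each). The HF20 value holds the uncertain Week 12 array and was 0.18 without that week, and the HF75 value holds the low Week 3 array and was 0.15, the opposite sign, without that week. Time point by time point, HF20 was above HFC at 5 of 6 for Hspa8 and Hsph1, at 2 of 6 for Hspd1 and Hspe1, and at 4 of 6 for the other 5 members. After normexp background correction the mean Hspa8 difference at HF20 was -0.33, against 0.29.

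**Figure D5:**
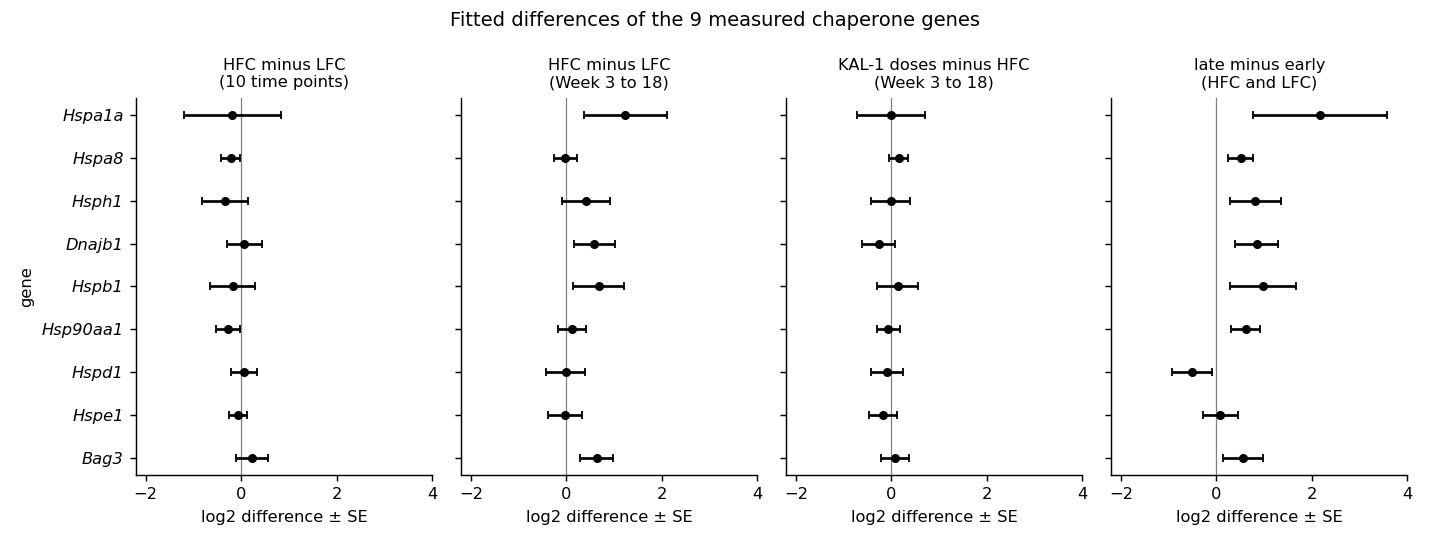
Mean log2 difference of each measured member (points, with bars of 1 SE from limma) for HFC against LFC, HFC against LFC over Week 3 to Week 18, the KAL-1 doses together against HFC, and late against early time points. No member passed an adjusted p of 0.05 in any panel, and the bars of Hspa1a are the widest.

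Against LFC, 3 members had an unadjusted p under 0.05 at HF20, all higher, against 1.68% of genes. Hspa1a was higher by 1.81 (SE 0.87, p = 0.0490), Hspb1 by 1.17 (SE 0.54, p = 0.0395) and Bag3 by 0.85 (SE 0.35, p = 0.0237). The limma adjusted p was 1.00 for each, and 0 of 21092 genes were called (0.0%). All 4 Hspa1a probes had an unadjusted p under 0.05 in this comparison, and 52_P52803 gave 2.88 (SE 0.95, unadjusted p = 0.0059, adjusted p = 1.00 by limma). The second Dnajb1 probe gave 1.13 (SE 0.54, unadjusted p = 0.0487). By the brightest probe, none of the 3 kept an unadjusted p under 0.05 without Week 12, with the Week 12 labels of HF5 and HF20 exchanged, after normexp background correction, by the methods' t-test, or without the 2 low arrays of this fit, where the Hspa1a difference was 0.63. At HF20 the difference from LFC was above 0 for 17 of 17 immediate early genes tested (median 1.12). At HF75 Bag3 was higher by 0.74 (SE 0.35, unadjusted p = 0.0460, adjusted p = 0.98 by limma), which stood against 0.778% of genes. Bag3 was higher at 3 of 6 time points and lower at 3, and its difference was 3.17 at Week 3, where HF75 was a low array and LFC had the lowest Bag3 level of all. Without Week 3 the mean was 0.25. The HF75 difference from LFC was above 0 for 10 of 10 skeletal muscle genes (median 1.39) and for 0 of 8 lymphocyte genes (median -1.54), and their part was not tested. No member had such a p at HF5, against 2.45% of genes.

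Time was examined last. Within LFC and HFC, the late minus early difference by the brightest probe was above 0 for 8 of 9 members, at 2.17 for Hspa1a (SE 1.41), 0.84 for Dnajb1 (SE 0.45), 0.61 for Hsp90aa1 (SE 0.30) and 0.51 for Hspa8 (SE 0.26), while Hspd1 was at -0.50 (SE 0.42). The other probes of the last pair gave -0.43 for Hspa8 (SE 0.42), the opposite sign, and -1.05 for Hspd1 (SE 0.50, unadjusted p = 0.0489, adjusted p = 0.54 by limma). By the brightest probe none was called by limma (adjusted p 0.61 to 0.95), where 0.00485% of 20605 genes were, and none had an unadjusted p under 0.05, against 8.31% of genes. Without the 4 low arrays the Hspa1a value was 0.17. The late minus early difference was negative for 10 of 10 skeletal muscle genes (median -2.61) and positive for 17 of 17 immediate early genes tested (median 1.56). It was above 0 for 0 of 5 brown adipocyte genes (median -1.48) and for 6 of 6 glucocorticoid-responsive genes (median 0.80). The part of these lists was not tested. Over the arrays of all 5 diets from Week 3 to Week 18, the slope of Hsp90aa1 was 0.06 per week (SE 0.02, unadjusted p = 0.016, adjusted p = 0.81 by limma), against 5.53% of genes with such a p and 0.00474% called. Time and scan day cannot be told apart.

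The rest of the chaperone network was read from 7 lists with 54 genes, holding heat shock factors, other HSP70, HSP40 and HSP90 proteins, small heat shock proteins, co-chaperones and the cytosolic chaperonin. No gene of them was called by limma in these comparisons. Between HFC and LFC, 1 of 51 tested had an unadjusted p under 0.05, Hspb6, a small heat shock protein of muscle, at 0.72, where 5.86% of all genes had such a p. From Week 3 on, Dnajb4 was at 1.06 and Dnajc7 at -0.86 between HFC and LFC, and with KAL-1 against HFC Dnajb4 was at -0.64 and Hspa13 at -0.49. These were each 2 of 52, against 5.06% and 4.5% of all genes. For HF75 against LFC 3 of 52 were higher, Hspb6 (1.66), Dnaja4 (1.16) and Hspb2 (1.04), and 0 lower, where 0.778% of all genes were higher. In the late minus early change of HFC against LFC, 2 of 51 were higher, Hspa12a (2.01) and Dnajb4 (1.41). There Dnajc7 was lower (-1.36), and 1.89% of all genes had such a p in either direction. Late against early, 1 of 52 was higher, Dnajb4 at 0.90, and 5 were lower: Hspb3 (-2.51), Hspb6 (-1.22), Fkbp4 (-0.72), Bag2 (-0.72) and Cct4 (-0.61), against 8.31% of all genes in either direction. Their median difference was -0.14 late against early, and that of the 9 members was 0.61, against -0.02 over all genes.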

How the data were processed

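Total RNA from subcutaneous adipose tissue was labelled with Cy3 and hybridised to 1-colour Agilent arrays, 39 in all. The authors deposited scanner intensity per spot, background-subtracted and detrended within each array by Agilent Feature Extraction (9.1 in the submitters' processing notes), and a table of log2 ratios, which served as an alternative. The file headers name the mouse build mm9, and no coordinate was taken from them; positions and promoters are RefSeq's, on GRCm38.p6. Symbols matched RefSeq for all 16 probes of the members and Fos. Here the log2 processed signal was reduced by the log2 of the array's 75th percentile, control spots and outlier-flagged spots were left out, spots of a probe were averaged, and the probe with the highest mean stood for a gene. Genes entered a fit where the number of arrays with the probe well above background reached the size of the smallest group. Differences were fitted in limma 3.58.1 (R 4.3.3), two-sided, with time point as a fixed block for diets and as a random block for late against early and for the change per week, and with Benjamini-Hochberg adjustment over all genes. A call is an adjusted p under 0.05. The number of arrays limits the precision, and scanner signals carry no counts. The fits were tested on simulated data. There the values of each gene were shuffled over the arrays separately, for genes well above background on every array. Shuffling removes the differences between arrays that genes share, so how the fits behave with such differences was not tested.

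Members, gene lists and tests were chosen with earlier results of these data known. Named genes were all members with every probe, Fos, and the 5 genes most like Hspa1a and Hspa8 among those well above background on at least 30 arrays. Genes of the chaperone lists with an unadjusted p under 0.05 (at most 5 in each direction) were named in the comparisons given for those lists. Hsp90ab1, single mitochondrial and reticulum chaperones, Hsf1, Cox8b and Ucp1 were named after their values were seen. Alternatives covered background correction (normexp), quantile normalization, filters, the probe rule, outlier spots, array weights, and blocks by scan day and slide. An unpaired t-test with time points as replicates, the deposited ratios and each time point left out were also run. Chosen after seeing the data were the low arrays of each fit left out, Day 14 and Week 0 taken as 1 time point, HF20 of Week 12 or Week 15 left out and the Week 12 labels exchanged.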

Additional observations from a re-analysis of the deposited data

Results flagged for a closer look

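Within each diet of 4 to 10 arrays, the levels of the members were searched for a single array far from the rest, measured as its gap to the nearest array over the whole range. HFC has 11 arrays and was not searched, except for Hsph1, which had 10 values there; 3 of the 6 low arrays are HFC. Of 37 groups, 3 held such an array, and chance flags about 1 in 20 groups. The genes were chosen by these levels, and HF75 Week 3 is 1 of the 6 low arrays, so its values are a description and not a test. Hspa1a in HF75 was at 1.48 at Week 3 and at 5.57 to 7.34 on the other arrays (ratio 0.698, critical value 0.625). Dnajb1 on the same array was at 2.28, against 4.89 to 5.72 (ratio 0.757). Hspe1 in HF20 was at 3.92 at Week 12 and at 2.36 to 2.77 on the others (ratio 0.740), on the array whose label is uncertain.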

How the results depend on the processing

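No member was called in any of the comparisons under any alternative that was run. The smallest adjusted p was 0.0973, for Hspe1 in HF20 against HFC after normexp, and for the other comparisons the smallest ran from 0.139 to 0.988. Of 2448 differences of members under alternatives, 270 changed sign, and 2 of these moved by over 2 SE: in HF20 against HFC, normexp gave -0.33 for Hspa8 (0.29 otherwise) and -0.36 for Hsp90aa1 (0.27 otherwise); the cause was not tested. Members with an unadjusted p under 0.05 ranged from 0 to 7 for the late minus early change of HFC against LFC (2 in the fit reported, 7 with no time point block), from 0 to 5 for HF20 against LFC (3) and from 0 to 3 for late against early (0). The diets were paired by the time point block, with 1 array of each diet per named time point. At Day 6 and Week 12 the LFC and HFC arrays were scanned on different days. At Week 6 the HF20 and HF75 arrays were scanned on another day than the rest. Diet and scan day cannot be told apart in those pairs. Replicate tags in some titles of Week 0 and Week 3 were not used. With no time point block, members with an unadjusted p under 0.05 numbered 1 for HF20 against LFC, 3 for late against early and 2 for the change per week (1 in the fit reported). The slide as a random block was not run for the 20 HFC and LFC arrays, which lay on 19 slides. Saturation on 11 arrays bounds Hspa1a from below, and 1 array per diet and named time point leaves no spread there except at Day 14 and Week 0, the same time, where the 2 arrays of a diet differed by 0.64 to 1.18 for Hspa1a. Taken as 1 time point, they gave 3 members with an unadjusted p under 0.05 for the late minus early change, and 0 for HFC against LFC and for late against early.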
